A study of Mus musculus with 42 samples.

Results

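The 59 genes described here were the clustered histone genes that were detected in thymus. They were all genes of the count table, 59 of 49585, whose GENCODE M21 symbol begins with Hist1h, Hist2h, Hist3h or Hist4h and that had 10 or more counts in at least 4 of the 24 thymus libraries. By class they were 6 linker histone H1 genes, 15 H2A, 15 H2B, 10 H3 and 13 H4 genes. In the GRCm38 annotation 49 lay in the Hist1 cluster at chr13:21715763-23764406, 5 in the Hist2 cluster at chr3:96219865-96263311, 3 in the Hist3 cluster at chr11:58948920-58956830 and 1, Hist4h4, on chromosome 6. The remaining member, Hist1h2al, lies on chromosome 13 away from that cluster, and it and Hist3h2bb-ps are annotated as pseudogenes.

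The study set mice carrying mutant p53 against mice without p53, in tissue at rest and after irradiation. RNA was sequenced from 42 organs of 25 mice aged 4 weeks. Every mouse carried a germline Trp53 alteration on a mixed background, BALB/C and C57BL6 in equal parts by the labels. The Null group was p53-null, and the Het group (p53 +/-) kept 1 wild-type allele. The AD group (p53 AD/-) and the RP group (p53 RP/-) carried the mutant alleles AD and RP, each over a null allele. Irradiated thymus was taken 4 h after exposure from 4 Null, 4 Het, 4 AD and 4 RP mice. Basal thymus, from mice that were not irradiated, came from 2 Null, 3 Het and 3 AD mice. From basal mice intestine, liver and pancreas were also taken, 3 AD and 3 Null libraries for each organ. Basal RP thymus and mice with both alleles wild type were not analysed here, so every genotype lacked at least 1 wild-type allele. AD-702 and the like join the genotype of a mouse to its number.

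Clustered histone genes encode the core histones H2A, H2B, H3 and H4, which form the nucleosome, and the linker histone H1, which binds DNA between nucleosomes. They are expressed mainly in S phase, when new chromatin is assembled on replicated DNA, and the thymus holds many dividing thymocytes. Their messages have no introns and usually end in a conserved stem-loop in place of a poly(A) tail, which is bound by the protein Slbp.

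The stem-loops are printed because they mark the members as replication-dependent messages and show how the classes differ. A stem-loop of 16 bases was found after the stop codon in 40 of the 59 members, against 62 of 22527 coding genes of the annotation, or 0.275%. Only 45 members had 40 or more annotated bases after the stop codon, so a missing match says little about the gene. The sequences below come from GENCODE M21 transcripts, run 5′ to 3′ on the strand of the gene, and the capitals mark the stem-loop.
Hist1h1c: caaaaGGCTCTTTTCAGAGCCaccac
Hist1h2ab: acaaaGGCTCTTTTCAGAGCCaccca
Hist1h2bb: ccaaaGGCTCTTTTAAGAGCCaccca
Hist1h3g: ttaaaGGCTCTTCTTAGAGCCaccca
Hist1h3d: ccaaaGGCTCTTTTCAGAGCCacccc
Hist2h3c2: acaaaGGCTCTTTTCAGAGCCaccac
Hist1h4f: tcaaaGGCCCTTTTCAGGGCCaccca
Hist1h4i: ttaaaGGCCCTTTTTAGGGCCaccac
Hist1h4m: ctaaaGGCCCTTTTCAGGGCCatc
Hist1h4n: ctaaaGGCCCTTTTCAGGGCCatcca
The capitals lie at chr13:23739512-23739527 in Hist1h1c, chr13:23747203-23747218 in Hist1h2bb, chr3:96238485-96238500 in Hist2h3c2, chr13:23551291-23551306 in Hist1h4f and chr13:21812129-21812144 in Hist1h4m. The commonest form, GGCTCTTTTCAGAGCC, was found in 20 members of the H1, H2A, H2B and H3 classes. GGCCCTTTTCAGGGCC was found in 7 members, all of them H4 genes. Hist1h2bb belonged to the 6 members with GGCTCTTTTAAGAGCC.

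Promoters were read because the members moved together. RefSeq promoters on GRCm38.p6, from 250 bases before to 50 after the start, were matched for 52 of the 59 members. Each motif was searched on both strands and separately, so that matches of different motifs may overlap. TATAAA was found in 61.5% of the members' promoters and in 15.7% of the promoters of all 27025 genes in the table. CCAAT was found in 82.7% of members against 41.1% of all genes. All matched H1, H2A, H2B and H3 promoters held CCAAT, while 3 of 12 H4 promoters did. The octamer ATTTGCAT was found in 42.9% of H2A and 33.3% of H2B promoters against 1.97% of all genes, and in none of the 6 H1, 8 H3 and 12 H4 promoters. The H1 motif AAACACA was in 5 of 6 H1 promoters, where Hist1h1a was the one without it, against 8.22% of all genes. TTTCGCGC was in 17.3% of members, all H2A or H2B genes, against 0.374% of all genes. Some H2A and H2B genes lie head to head with overlapping promoter windows, so the same site can be counted for both genes. The H2B genes with TTTCGCGC, Hist1h2bf, Hist1h2bj, Hist1h2bk and Hist1h2bp, overlap in this way with Hist1h2ad, Hist1h2ag, Hist1h2ah and Hist1h2an, which also hold it. For the octamer this holds for Hist1h2bg with Hist1h2ae and Hist1h2bk with Hist1h2ah. The 160 bases before the start of 4 members with high levels, 5′ to 3′ on the gene's strand with these motifs in capitals, show the differences between classes.
Hist1h1a: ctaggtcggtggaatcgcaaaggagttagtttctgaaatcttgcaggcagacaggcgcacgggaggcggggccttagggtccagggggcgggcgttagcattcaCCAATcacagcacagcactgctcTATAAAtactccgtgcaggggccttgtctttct
Hist1h1c: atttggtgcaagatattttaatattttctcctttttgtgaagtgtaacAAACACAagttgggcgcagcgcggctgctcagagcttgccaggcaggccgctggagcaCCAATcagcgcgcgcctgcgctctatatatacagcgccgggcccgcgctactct
Hist1h2bb: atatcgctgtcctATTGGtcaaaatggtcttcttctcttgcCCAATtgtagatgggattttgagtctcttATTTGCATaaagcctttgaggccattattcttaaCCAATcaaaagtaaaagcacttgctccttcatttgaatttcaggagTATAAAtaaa
Hist1h4f: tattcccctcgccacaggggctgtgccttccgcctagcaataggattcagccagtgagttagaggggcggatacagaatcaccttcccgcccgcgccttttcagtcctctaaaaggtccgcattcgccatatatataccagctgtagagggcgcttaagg
The windows are chr13:23763508-23763667 and chr13:23738647-23738806 for the H1 genes, chr13:23746574-23746733 for the H2B gene and chr13:23551669-23551828 on the minus strand for the H4 gene. Hist1h1a and Hist1h1c share CCAAT, and Hist1h1c carries AAACACA further upstream. Hist1h2bb holds CCAAT in both orientations, the octamer and TATAAA, and Hist1h4f holds none of the 5 motifs in these 160 bases, although TATAAA occurs elsewhere in its window of 300. A match describes letters only.

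The members lay far from the count minimum. Of the members, 58 had 10 or more counts in all 24 thymus libraries, and Hist1h2ao had them in 17, with 3 to 37 counts. The next members inside were Hist1h1t and Hist1h2br, with at least 28 counts in every thymus library. Just outside lay Hist1h2ap with at most 6 counts, Hist1h2aj with at most 5 and Hist1h2aa with at most 4. Hist2h2aa1, Hist2h2aa2, Hist2h3c1, Hist2h3b and Hist2h2bb were listed at 0 in all 24. Of the 50-base words of each of these 5 genes, 100% were also found in other annotated genes. A count of 0 for them therefore need not mean that no RNA was present. Many members are near-identical copies, so the split of reads between them is uncertain. The median share of coding 50-base words also found in another gene was 87.9% for H2A, 82.8% for H2B, 79.0% for H3, 70.3% for H4 and 11% for H1. H2A genes held only 0.911 to 1.57% of the histone counts in thymus libraries.

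Thymus libraries held 26398761 to 33331829 counts, intestine 24340398 to 34772519, liver 26000528 to 32487187 and pancreas 19861977 to 24815911 counts. The labels were checked with Trp53 and its target Cdkn1a. Trp53 averaged 20.1 CPM (counts divided by the library total and scaled to one common total) in irradiated Null thymus (SD 0.691, n = 4) and 30.8 to 35.8 CPM in the other irradiated groups. In intestine Trp53 stood at 9.98 to 10.5 CPM in Null and 14.0 to 15.1 CPM in AD. It did not separate these groups in liver (3.25 to 4.57 CPM in Null, 4.28 to 4.96 in AD) or in pancreas (3.93 to 5.03 CPM in Null, 2.55 to 4.52 in AD), so there it checks no label. Cdkn1a averaged 41.3 CPM in irradiated Het thymus (SD 2.56, n = 4) and 3.06 to 4.99 CPM in every other thymus group. All 12 thymocyte markers were present in every thymus group, with summed levels of 8948 to 12680 CPM. Thymic epithelium markers summed to 1760 to 1938 CPM in irradiated Het thymus and 1119 to 1444 CPM in every other thymus group. The part of these cells in the histone results was not tested. In bulk tissue fewer dividing cells and less histone RNA per cell cannot be told apart.

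Histone genes took 1.46 to 1.94% of the counts of basal thymus libraries, and that share was lower after irradiation in Null, Het and AD. In basal thymus the 59 genes together stood at 14572 and 16789 CPM in Null, 14690, 15941 and 16442 CPM in Het, and 14813, 16722 and 19439 CPM in AD. In irradiated thymus they stood at 7123, 8928, 9614 and 10414 CPM in Null, 7678, 7766, 7836 and 8915 CPM in Het, and 7557, 7725, 9355 and 10490 CPM in AD. Irradiated RP thymus, which has no basal libraries here, stood at 11124, 11185, 12463 and 12999 CPM. All 16 irradiated libraries lay below all 8 basal ones, and all 4 RP libraries lay above the other 12 irradiated libraries. Level per kilobase of exon was taken over all thymus libraries, and it depends on how much exon is annotated for a gene. The 6 members with the highest values were Hist1h4f (1357 CPM per kb), Hist1h1a (1240), Hist1h4k (1194), Hist1h2bb (1048), Hist1h4h (1037) and Hist1h2bn (895). Hist1h1d was not among them. Its mean in basal AD and Null thymus was 1297 CPM, against 1275 CPM for Hist1h1a and 746 CPM for Hist1h4f.

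**Figure D1:**
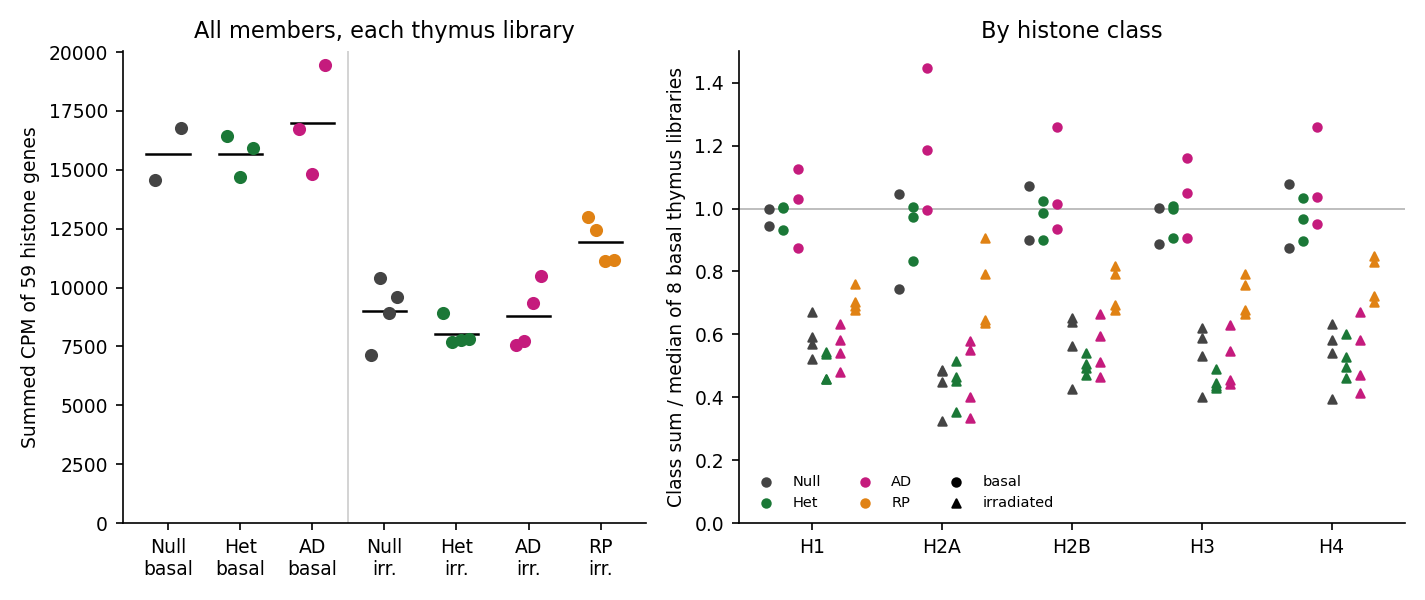
Left, summed CPM of the 59 histone genes in each thymus library by genotype, basal or irradiated (irr.), with a line at the group mean. Right, the sum of each histone class in each library divided by the median of the 8 basal thymus libraries. All irradiated libraries sit below all basal libraries on the left, and the RP libraries, 11124 to 12999 CPM, are the highest of the irradiated ones.

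Irradiated thymus was set against basal thymus within Null, Het and AD, over 23605 tested genes in 1 fit of all 24 thymus libraries. In Null 19 of 59 members passed an adjusted p under 0.05 (edgeR), all of them lower, against 0.119% of all tested genes called lower. In Het 54 were lower, against 8.09%, and in AD 50 were lower, against 0.381%. No member was called higher in any of the 3, where 0.0127%, 8.74% and 0.165% of all genes were. The median log2 fold change of the members was -0.90 in Null, -1.05 in Het and -1.09 in AD, while the median of all tested genes was 0.03, 0.02 and 0.01. The groups did not overlap, with irradiated values below, for 53 members in Null, 55 in Het and 54 in AD, against 7.3%, 12.4% and 6.97% of all genes. All 19 genes called in Null were also called in Het and in AD, and all 50 called in AD were called in Het, with each comparison using its own mice. Outside the members 12 genes were called in Null, 3918 in Het and 79 in AD.

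The Null count rested on few libraries. It was 0 without the basal library Null-923, 3 without basal Null-859 and 34 without irradiated Null-604, 2 when only the Null libraries were fitted, and 47 by DESeq2. The AD count was 28 when only the AD libraries were fitted. The members' median stayed between -1.01 and -0.75 in Null over all left-out libraries.

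Of the 6 H1 genes 3 were called lower in Null, 5 in Het and 5 in AD. Hist1h1a (chr13:23763666-23764406), a linker histone gene of dividing cells, stood at 1301 and 1344 CPM in basal Null thymus, and at 766, 826, 769 and 809 CPM in irradiated Null thymus. In Het it stood at 1313, 1223 and 1351 CPM before and at 560.8, 461.4, 494.2 and 652.99 CPM after. In AD the values were 1263, 1077 and 1389 CPM, then 754, 601, 744 and 805 CPM. No irradiated value reached a basal one, and irradiated Het libraries were the lowest as a group. The log2 fold changes were -0.78 ± 0.12 (SE) in Null, -1.26 ± 0.11 in Het and -0.82 ± 0.11 in AD, with edgeR adjusted p of 0.00583, 8.78e-09 and 0.000215. Hist1h1c fell by 0.94 ± 0.13 in Null, 0.75 ± 0.12 in Het and 1.06 ± 0.12 in AD on the log2 scale. Hist1h1d, a further somatic linker histone gene, changed by -0.84, -0.98 and -1.06. Hist1h1b changed by -0.96 in Het and -0.62 in AD, both called, and stood at -0.51 in Null (edgeR adjusted p = 0.133). Hist1h1e changed by -0.85 in Het and -0.84 in AD and stood at -0.63 in Null (edgeR adjusted p = 0.0717). The testis linker gene Hist1h1t, at 0.9 to 3.18 CPM over the thymus libraries, was called in none of them (-0.08, 0.40 and -0.13).

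Among H2A genes the count called lower was 4 of 15 in Null, 13 in Het and 12 in AD, with medians of -0.98, -1.24 and -1.44. Hist1h2ab stood at 18.4 and 34.1 CPM in basal Null and 6.35, 10.7, 12.3 and 12.1 CPM in irradiated Null. Het values were 28.1, 24 and 29.8 CPM, then 13.8, 11.8, 12.2 and 7.99 CPM, and AD values 37.6, 29.3 and 46.2 CPM, then 6.02, 9.94, 16.5 and 15.6 CPM. Its groups did not overlap in any genotype, although the Null change of -1.38 ± 0.35 did not pass (edgeR adjusted p = 0.203). Hist1h2ag and Hist1h2ae were called in all 3 genotypes, at -1.42, -1.39 and -1.66 and at -1.28, -1.55 and -1.55.

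H2B genes were lower in 3 of 15 cases in Null, 14 in Het and 13 in AD. Hist1h2bb, the H2B gene whose promoter is printed above, stood at 663 and 758 CPM in basal Null and 388, 477, 423 and 497 CPM in irradiated Null. In Het it stood at 722, 669 and 678 CPM, then 397, 369, 358 and 358 CPM. In AD the values were 688, 624 and 854 CPM, then 390, 403, 431 and 483 CPM. The changes were -0.71 ± 0.13, -0.90 ± 0.11 and -0.80 ± 0.11, all called and with no overlap.

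H3 genes were lower in 6 of 10 cases in Null, 9 in Het and 9 in AD. Hist1h3d stood at 198 and 218 CPM in basal Null and 87.3, 124, 119 and 129 CPM in irradiated Null. In Het it went from 228, 204 and 218 CPM to 85.3, 74.9, 75.8 and 73.6 CPM. In AD it went from 219, 198 and 248 CPM to 101, 97.3, 119 and 134 CPM. The log2 fold changes were -0.90 ± 0.14, -1.48 ± 0.13 and -1.02 ± 0.13, with no overlap in any genotype.

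H4 genes were lower in 3 of 13 cases in Null, 13 in Het and 11 in AD, and the 13 include Hist1h4m, whose level stood apart between mice of 1 group (described further on). Hist1h4f had the highest level per kilobase of annotated exon. It stood at 652 and 747 CPM in basal Null and 287, 475, 395 and 441 CPM in irradiated Null. In Het it stood at 763, 666.9 and 700.8 CPM, then 404, 345, 359 and 355 CPM, and in AD at 767, 680 and 887 CPM, then 306, 367, 422 and 486 CPM. Its changes were -0.84 ± 0.18 in Null (edgeR adjusted p = 0.0645), -0.96 ± 0.16 in Het and -1.02 ± 0.16 in AD. The groups did not overlap, and the last 2 passed. Hist1h4i was called in all 3, at -1.19, -1.19 and -1.48.

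5 members were called in no genotype: Hist2h2ab, Hist2h2be, Hist2h3c2, Hist3h2a and Hist1h1t. Hist2h2be, an H2B gene of the Hist2 cluster, stood at 28.3 to 41.4 CPM in basal and 27 to 38 CPM in irradiated thymus. Its changes were -0.06 ± 0.11, 0.11 ± 0.10 and -0.23 ± 0.10. In 4 of the 5, all but Hist1h1t, the gene lay outside the Hist1 cluster. Members outside that cluster were not all alike: Hist2h4, Hist3h2ba and Hist2h2ac were called in all 3 genotypes.

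**Figure D2:**
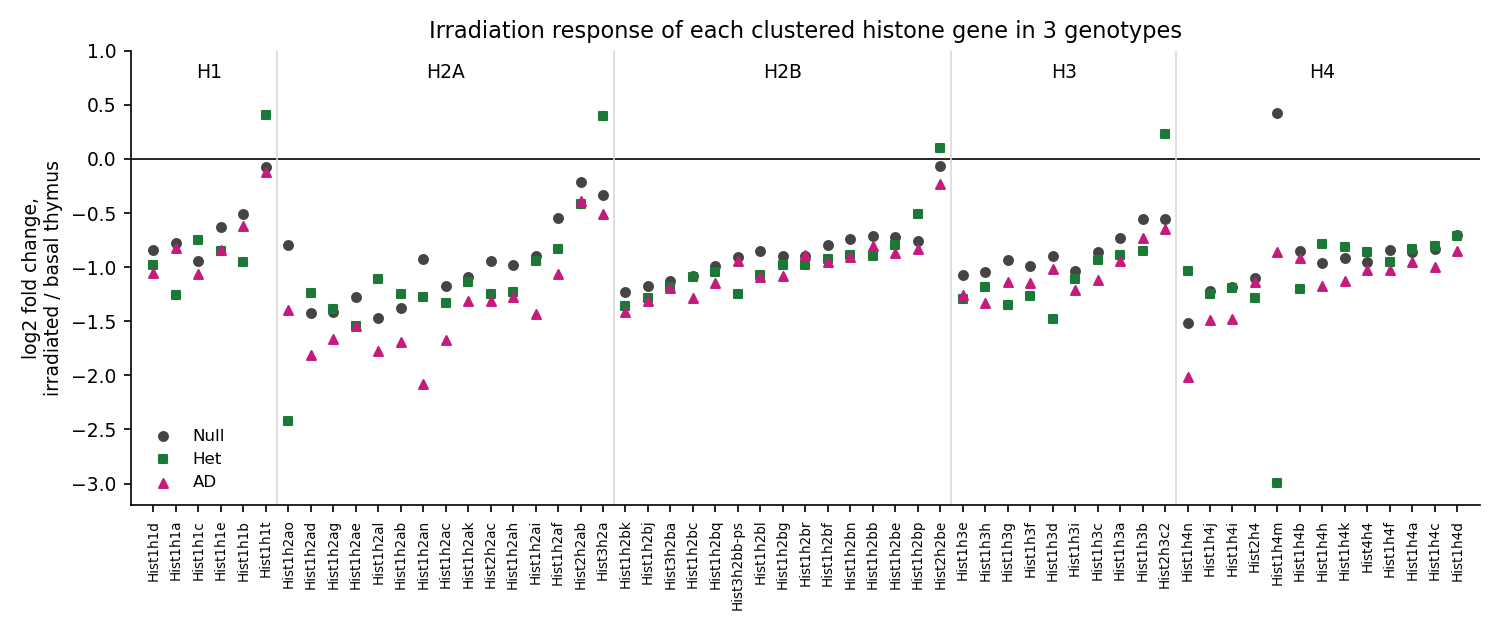
Log2 fold change of irradiated over basal thymus for each of the 59 histone genes (x axis, ordered within class by the mean of the 3 genotypes) in Null, Het and AD. Most points lie between -0.5 and -1.7, the few points above 0 belong to Hist1h1t, Hist3h2a, Hist2h2be, Hist2h3c2 and Hist1h4m, and none of those above 0 was called.

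The responses were then compared between genotypes by interaction terms. The response of Het minus that of AD was called for 1 member, Hist3h2a (0.90 ± 0.25, edgeR adjusted p = 0.0439), against 3.98% of all genes. Hist3h2a, an H2A gene, stood at 7.9, 8.3 and 7.66 CPM in basal Het and 12.3, 12.5, 8.02 and 8.98 CPM in irradiated Het. In AD it stood at 12.8, 11 and 6.68 CPM before and 8.49, 7.06, 6.54 and 7.35 CPM after. Basal and irradiated values overlapped in each genotype. The call was lost when only these groups were fitted (edgeR adjusted p = 0.0791) and without any 1 of 10 of the 14 libraries (edgeR adjusted p of 0.0642 to 0.175), and it was kept without basal AD-702 or irradiated AD-630, Het-603 or Het-631. Without basal AD-702 the count of members called was 2, and without Het-631 it was 3. For Het minus Null edgeR called 0 members, with 7 at an unadjusted p under 0.05 and 1 called by DESeq2, against 3.44% of all genes by edgeR. Without irradiated Het-631 edgeR called 2 and without irradiated Null-593 it called 1. For AD minus Null edgeR and DESeq2 called 0 members, with 0 at an unadjusted p under 0.05, and 0% of all genes were called. The median difference was -0.11 for Het minus Null, 0.10 for Het minus AD and -0.18 for AD minus Null.

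Lists of genes that act around histone messages were set beside the members. A list of 23 genes for transcription and processing of histone mRNA, 22 of them tested, had 0 called in Null and in AD and 6 lower in Het, with medians of 0.05, 0.09 and -0.12. In Het the stem-loop binding protein gene Slbp changed by -0.27, the cleavage factor gene Cpsf2 by -0.43, the decay factor gene Lsm1 by -0.34 and the S phase transcription factor gene E2f3 by -0.36. Of 18 histone chaperone genes 0 were called in Null and AD, and 6 were lower and 1 higher in Het, with Nasp at -0.46, Hat1 at -0.44, Rbbp7 at -0.42 and Nap1l4 at -0.29. Of 20 S phase genes 0 were called in Null, 1 was higher in AD (the ribonucleotide reductase gene Rrm2, 0.46), and 6 were lower and 1 higher in Het. The helicase genes Mcm6 (-0.91), Mcm2 (-0.81) and Mcm3 (-0.54) and the replication gene Gins2 (-0.64) were among those that fell in Het. Of 12 mitosis genes 0 were called in Null, 2 were lower in AD (Ccnb1 -0.77, Cdc20 -0.82) and 6 in Het (Ccnb1 -1.44, Cdc20 -0.73, Aurka -0.61, Cdk1 -0.54). Irradiated Het libraries were spread widely in both lists. The mitosis list summed to 4182 to 4491 CPM in basal Het and 3117 to 5281 CPM in irradiated Het. The S phase list summed to 3003 to 3146 CPM and 2379 to 3290 CPM, so both sums overlapped. Of 11 genes listed as replication-independent histone variants 0 were called in Null, and H2afx was lower in AD (-0.61). In Het H2afj was higher (1.45) while Cenpa (-0.42) and H2afz (-0.35) were lower. When each listed variant is expressed in the cell cycle was not tested. In Null, edgeR called 0 in each of these 5 lists. There 4 transcription and processing, 2 chaperone, 6 S phase, 3 mitosis and 2 variant genes were at an unadjusted p under 0.05. In AD the counts at that p were 10 transcription and processing, 1 chaperone, 7 S phase, 4 mitosis and 5 variant genes.

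RNAs that carry no poly(A) tail were listed as well, since the kind of library was not given in the sources used here. Of 10 tested, edgeR called 0 in Null and AD (1 and 8 at an unadjusted p under 0.05) and 1, Rny3 (-0.35), in Het, with medians of -0.15, -0.30 and -0.12 in Null, AD and Het. One of them, the ribonuclease P RNA Rpph1, stood at 13091 to 15255 CPM in basal Null, 15420 to 15723 in basal Het and 15177 to 19058 CPM in basal AD. In irradiated thymus it stood at 7915 to 12791 CPM in Null, 8869 to 14261 in AD, 13027 to 17759 in Het and 14352 to 17234 CPM in RP. Its irradiated values lay below the basal ones in Null and AD and overlapped them in Het, and the RP values lay above those of irradiated Null and AD. Rmrp and Rn7s1 lay in the same order, and others of the list did not. Basal and irradiated values overlapped in Null for Rn7sk, Rnu12, Rny1, Rny3, Terc and Malat1, and in AD for Rn7s2. Rn7sk stood at 42877 to 46817 CPM in basal and 40084 to 44945 CPM in irradiated Null. The part of these RNAs in the histone results was not tested.

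**Figure D3:**
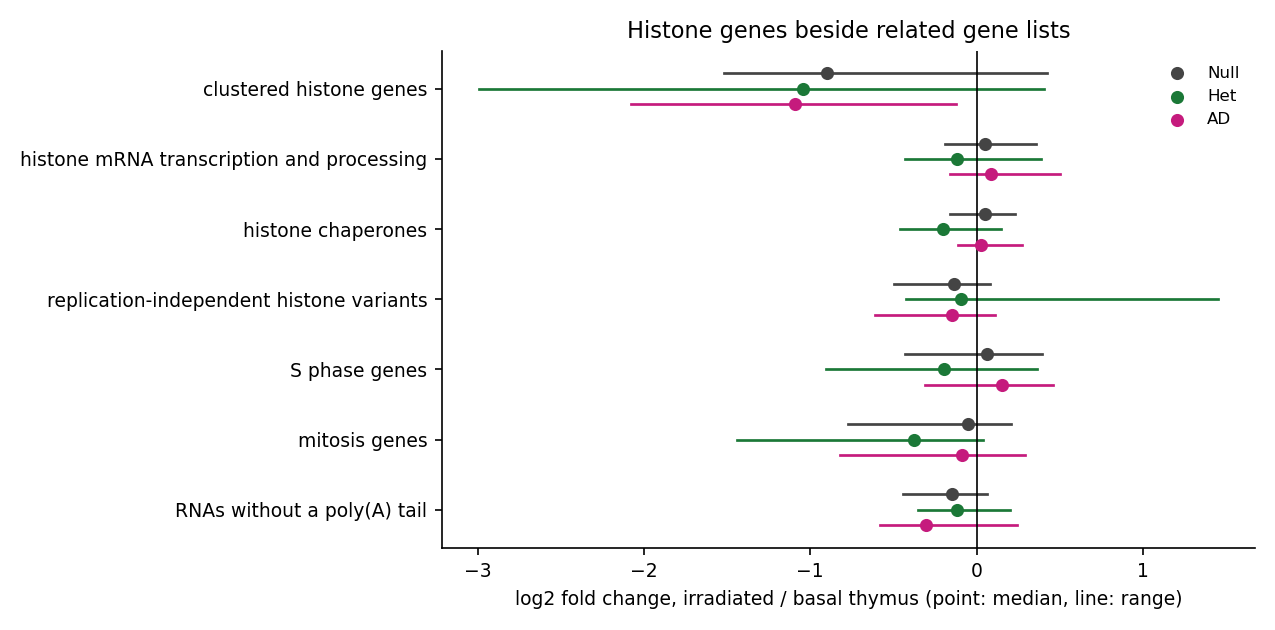
Median (point) and range (line) of the log2 fold change of irradiated over basal thymus for the 59 histone genes and 6 related gene lists in Null, Het and AD. The histone medians lie at -0.90, -1.05 and -1.09, and the medians of the other lists lie between -0.38 and 0.15.

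Irradiated thymus was compared between genotypes over 22206 tested genes. With no basal RP thymus here, a difference of RP that was there before irradiation cannot be told apart from a different response. In RP against Het 40 members were higher and 1, Hist2h3c2, lower, against 18.7% of all genes called, 8.53% higher and 10.2% lower. The median of the members was 0.61 and that of all genes -0.01. RP values lay wholly above Het values for 46 members, against 11.4% of all genes. Among the H1 genes Hist1h1a stood at 976, 802, 884 and 887 CPM in RP, above all 4 Het values given earlier (0.69 ± 0.10, edgeR adjusted p = 0.000138). Hist1h3d stood at 167, 151, 137 and 140 CPM in RP (0.92 ± 0.13, edgeR adjusted p = 8.19e-05), again without overlap. Hist1h4f stood at 623, 588, 507 and 514 CPM in RP (0.59 ± 0.16) and Hist1h2bb at 606, 562, 472 and 505 CPM (0.51 ± 0.10). Without RP-649 the count fell to 23, without Het-595 or without Het-603 it was 27, and with no filter on low counts it was 26.

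Related lists differed in RP against Het too. Higher were 13 of 20 S phase genes (Mcm6 0.78, Mcm2 0.64, Pcna 0.62), 8 of 12 mitosis genes (Ccnb1 0.88) and 12 of 18 chaperone genes (Hat1 0.53). So were 12 of 22 genes for transcription and processing of histone mRNA, among them the cyclin gene Ccne1 (0.62) and Slbp (0.48). In these lists 1 gene, the chaperone gene Ubn1, was lower. The summed mitosis list stood at 4335 to 4988 CPM in irradiated RP, inside the range of 3117 to 5281 CPM in irradiated Het. The summed S phase list stood at 3459 to 3679 CPM in RP, above the 2379 to 3290 CPM of Het.

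Against Null, irradiated RP thymus had 58 of 59 members above 0, with a median of 0.47, but edgeR called 0, with 47 at an unadjusted p under 0.05 and 3 called by DESeq2, against 0.0315% of all genes by edgeR. RP values lay wholly above Null values for 40 members, against 2.3% of all genes. Hist1h1c stood at 792, 740.5, 702.3 and 682.6 CPM in RP and at 454, 623, 549 and 560 CPM in Null (0.44 ± 0.11, edgeR adjusted p = 0.534). In this comparison 0 genes of the S phase, mitosis, chaperone and histone mRNA transcription and processing lists were called. Their medians were -0.01, 0.03, -0.05 and -0.02, with 1, 0, 1 and 0 at an unadjusted p under 0.05 by edgeR. The list of RNAs without a poly(A) tail had a median of 0.22 and 0 called by edgeR, with 5 at an unadjusted p under 0.05. For RP against Het that list had a median of 0.008 and 0 called by edgeR, with 1 at an unadjusted p under 0.05. AD against RP had a median of -0.51, edgeR called 0 members (51 at an unadjusted p under 0.05, 2 called by DESeq2), and AD lay wholly below RP for 37 members, against 3.74% of all genes. In that comparison 0 of all genes were called.

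No histone gene was called between AD and Null after irradiation. edgeR and DESeq2 called 0 members, 0 were at an unadjusted p under 0.05, and the median was -0.02, against 0.027% of all genes called by edgeR. In Het against Null 2 members were higher and 4 lower, or 10.2% of members against 19.2% of all genes, 9.79% higher and 9.38% lower. Hist2h3c2, a low H3 gene at 3.58, 2.66, 2.28 and 4.17 CPM in Het and 1.53, 2.12, 2.04 and 1.39 CPM in Null, was higher (0.88 ± 0.23, edgeR adjusted p = 0.0111) without overlap. Hist3h2a was higher with overlapping values (0.50 ± 0.15). Hist1h1a (-0.51 ± 0.10, no overlap), Hist1h3d (-0.52 ± 0.13), Hist1h1b (-0.43) and the low H2A gene Hist1h2ao (-1.47) were lower. The count was 3 without Het-595, 10 without Null-593 and 3 when only these groups were fitted.

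In AD against Het 3 members were higher and 2 lower, against 14% of all genes called, 5.69% higher and 8.27% lower. Hist1h4m (1.65 ± 0.51), Hist1h3d (0.50 ± 0.13) and Hist1h1a (0.38 ± 0.10) were higher, and Hist2h3c2 (-0.86 ± 0.23) and Hist3h2a (-0.55 ± 0.15) were lower. Hist1h4m, Hist1h3d and Hist2h3c2 did not overlap between the groups. The count was 2 without AD-630 or without Het-595, and 3 without AD-726, AD-727, Het-594 or Het-603 or with only these groups fitted. The Hist1h4m call was lost without any 1 of 7 of the 8 libraries, with edgeR adjusted p of 0.066 to 0.132, and with no filter on low counts (0.103). It was kept without Het-631 (0.00845).

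Hist1h4m (chr13:21811746-21812147, in the Hist1 cluster) stood far apart between mice of 1 group in basal AD, irradiated Null and irradiated Het thymus. It stood at 9.99 and 9.86 CPM in basal Null, 55.7, 51.6 and 48.4 CPM in basal Het, and 11.5, 11.5 and 87.2 CPM in basal AD. In irradiated thymus it stood at 4.46, 6.67, 23.5 and 20.1 CPM in Null, 4.81, 3.84, 4.09 and 13.8 CPM in Het, 16.5, 20, 23.8 and 24.4 CPM in AD, and 5.34 to 7.79 CPM in RP. Its near copy Hist1h4n, which shares 85.6% of its 50-base words with other genes, Hist1h4m foremost, has the same stem-loop printed above. Of the summed CPM of both genes, Hist1h4m took 5.69 to 10.9% in 13 thymus libraries and 30.0 to 37.3% in the other 11, with no library between. The 11 libraries were the 3 basal Het mice, basal AD-702, irradiated Null-856, Null-857 and Het-631, and all 4 irradiated AD mice. Mouse AD-702 also stood high in its other organs, at 33.9% in intestine, 28.6% in liver and 42.2% in pancreas, while the other 15 intestine, liver and pancreas libraries stood at 4.04 to 13.9%. The split was seen after the values were known and is given with no test, and it crosses the genotype and irradiation comparisons of both genes. In Het all 3 basal mice and 1 of the 4 irradiated mice had the high share, and the irradiation response of Hist1h4m was -2.99 in Het, against 0.42 in Null and -0.86 in AD.

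**Figure D4:**
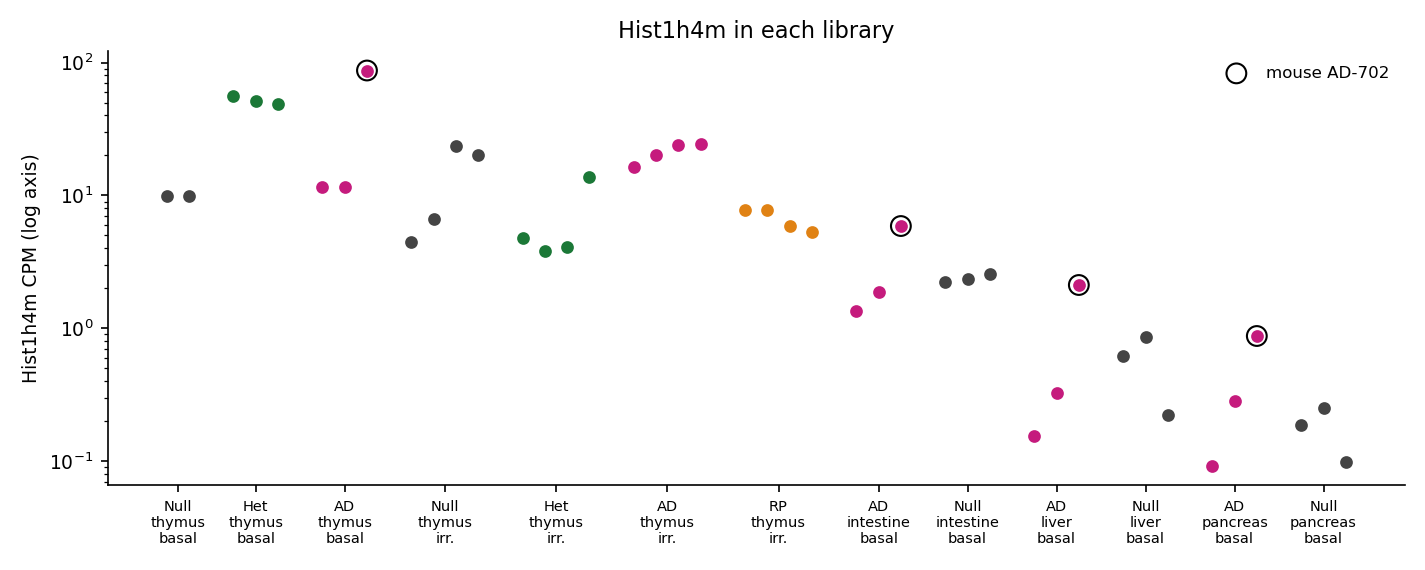
Hist1h4m in CPM (log axis) in each of the 42 libraries, grouped by genotype, tissue and condition, with the libraries of mouse AD-702 circled. AD-702 is the highest AD library in each of the 4 basal tissues, from 87.2 CPM in thymus to 0.876 CPM in pancreas.

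Basal thymus showed no called difference in histone genes between genotypes. edgeR called 0 members in Het against Null (1 at an unadjusted p under 0.05, 1 by DESeq2), 0 in AD against Null (5 at an unadjusted p under 0.05, 0 by DESeq2) and 0 in AD against Het (5 at an unadjusted p under 0.05, 1 by DESeq2). All genes were called at 0.0676%, 0.0676% and 0%. The medians were 0.02, 0.16 and 0.14, and 56 of 59 members were above 0 in AD against Null. The highest basal library was AD-702, and without it AD against Het had a median of 0.02 and 1 member called, and AD against Null had a median of 0.03. Without Null-859 Het against Null had 1 member called.

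In the other basal tissues AD was set against Null. In intestine the 57 members tested had a median of -0.33 and edgeR called 0, with 23 at an unadjusted p under 0.05 and 1 called by DESeq2, against 0.015% of all genes. AD lay wholly below Null for 14 members, against 6.43% of all genes. Hist1h1a stood at 105, 82.2 and 85.5 CPM in AD and 139, 126 and 127 CPM in Null (-0.42 ± 0.12, edgeR adjusted p = 0.604). In liver 44 members were tested, with a median of -0.30, and edgeR and DESeq2 called 0 (1 at an unadjusted p under 0.05), against 0.267% of all genes. Without the liver of Null-859 that median was 0.10, and without the liver of AD-702 1 member was called. In pancreas 39 members were tested, with a median of -0.33, and edgeR and DESeq2 called 0 (2 at an unadjusted p under 0.05), against 0.0548% of all genes. Without the pancreas of Null-1087 that median was 0.15. Pancreatic acinar markers summed to 555 to 73837 CPM in the 6 intestine libraries, highest in AD-702 and Null-923, and the part of such tissue in the intestine values was not tested.

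Across basal tissues, levels were highest in thymus by a wide margin, and since the genes were chosen by their thymus counts, thymus is given with no test. The summed level was 1557 to 2608 CPM in intestine, 366 to 641 CPM in liver and 181 to 340 CPM in pancreas. As a share of the mean of the 5 AD and Null basal thymus libraries, the median member stood at 11.4% in intestine, 1.52% in liver and 0.873% in pancreas. These shares depend on the scaling, because a few genes take much of a pancreas or liver library. With edgeR's TMM factors, 1.95 to 2.03 in thymus and 0.451 to 0.526 in pancreas, the medians were 15.9%, 3.65% and 3.6%.

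Some members kept much more of their thymus level than others. Hist1h2bc, an H2B gene, stood at 67, 73.4 and 62 CPM in AD liver and 72.9, 74.5 and 66.3 CPM in Null liver. That was 26.6% of its thymus mean by CPM (63.6% with TMM), the highest share in liver by either scaling, and it made up 14.9% of liver histone counts against 1.58% in thymus. Hist2h3c2 stood at 23.1% in liver, Hist2h2be at 14.0%, Hist2h2ab at 9.46% and Hist3h2a at 7.89%. Apart from Hist2h2be these are low genes, so their shares rest on few counts. Hist2h3c2, Hist2h2ab and Hist3h2a averaged 0.614, 0.385 and 0.778 CPM in liver and 2.65, 4.07 and 9.86 CPM in thymus. They and Hist2h2be are also among the 5 members that were called in no irradiation response. Hist3h2ba had the lowest share in liver, 0.255%, and in intestine, 0.807%, and stood at 0.307% in pancreas. In pancreas Hist2h3c2 had the highest share, 24.2% by CPM and 100% with TMM, so how much of its thymus level it kept there rests on the scaling.

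**Figure D5:**
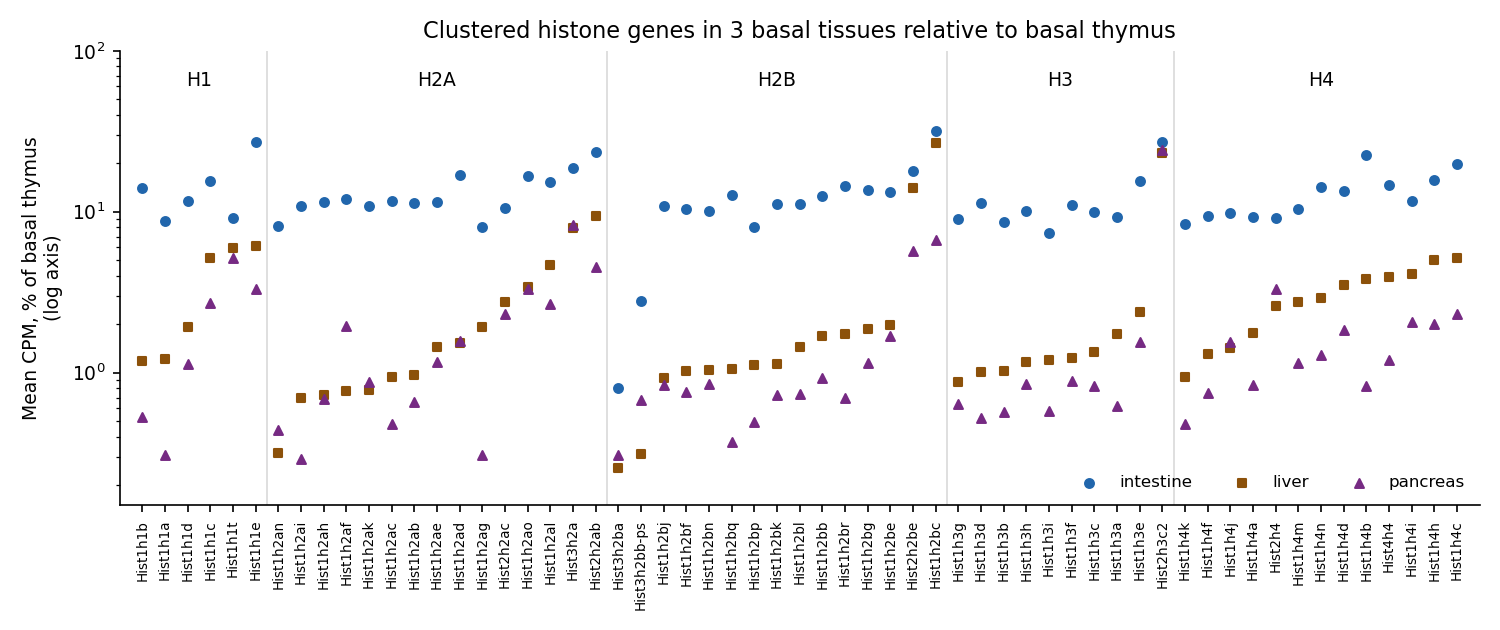
Mean CPM of each of the 59 histone genes in basal intestine, liver and pancreas (6 libraries each) as a percent of its mean over the 5 AD and Null basal thymus libraries, on a log axis, ordered within class by the liver value. Intestine points lie mostly near 11.4%, and Hist1h2bc, Hist2h2be and Hist2h3c2 stand above the others in liver.

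Intestine, whose crypts hold dividing cells, was above liver and pancreas in most members, over 24431 tested genes. All 59 members were tested in 1 fit of 23 libraries that include thymus, where they are high and by which they were chosen. Filtered within 1 organ, 57 passed in intestine, 44 in liver and 39 in pancreas. Against liver 52 were higher and 2 lower, with 70.5% of all genes called, 42% higher and 28.5% lower, and the median was 2.04. Hist1h1e stood at 197, 148 and 138 CPM in AD intestine and 203, 187 and 160 CPM in Null intestine, and at 31.2 to 50.4 CPM in liver (1.38 ± 0.13, edgeR adjusted p = 1.41e-09). Hist1h2bc (-0.50 ± 0.13) and Hist2h2be (-0.41 ± 0.12) were lower in intestine with TMM but higher when scaled by library totals alone (0.26 and 0.35), so their direction depends on the scaling. With library totals 57 members were higher and 0 lower, the median of all genes moved from 0.33 to 1.07 and that of the members from 2.04 to 2.79.

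Against pancreas 49 members were higher in intestine and 1 lower, with 64.3% of all genes called, 34.9% higher and 29.4% lower. The lower one, Hist2h3c2, was at -1.35 with TMM (edgeR adjusted p = 0.00032) but at 0.19 with library totals (edgeR adjusted p = 0.555), so its direction depends on the scaling. The median was 2.03, and with library totals 57 were higher and 0 lower. Hist1h1a, at 82.2 to 139 CPM in intestine and 1.58 to 12 CPM in pancreas, differed by 3.41 ± 0.38. Mitosis genes were higher in intestine in 12 of 12 cases in both comparisons, and S phase genes in 15 of 20 against liver, with 3 lower, and in 17 of 20 against pancreas, with 0 lower. Liver and pancreas differed in 15 members, 7 higher in liver and 8 lower, against 65.3% of all genes, 30% higher and 35.3% lower. Of the 59, 15 would pass the filter in neither organ alone, and 2 of these, Hist1h2af and Hist3h2bb-ps, were among the 8. With library totals 28 were higher and 1 lower, the median of all genes moved from -0.13 to 0.52, and the members' median from 0.02 to 0.79, so the balance of directions rests on the scaling. Hist1h2bc was higher in liver with either scaling (1.21 ± 0.14 with TMM).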

How the data were processed

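RNA from 42 mouse organ samples was sequenced, and the authors deposited 1 table of raw counts, with 49585 genes and 42 columns. STAR 2.6.0b, DESeq2 and the build GRCm38 are named in the submitters' processing notes. The counter, the annotation, strand handling, library kit, irradiation dose and sex are each not given in the sources used here. Each column was tied to the sample whose title gives its animal, genotype and organ; thymus columns name no organ and were the only ones left for those animals. Symbols came from GENCODE M21, which matched 49326 gene identifiers and missed 259.

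The members and gene lists were chosen with earlier results of these data known. CPM are counts over the library total. Fits used R 4.3.3 and edgeR 4.0.16 (filterByExpr, TMM, robust quasi-likelihood F tests over all genes, Benjamini-Hochberg adjusted p under 0.05), with all groups of a setting together: irradiated thymus (16 libraries), basal thymus (8), all thymus (24), each basal tissue (6) and the 4 basal tissues of AD and Null (23). Values after ± are standard errors of log2 fold changes unless SD is written. Genes named were up to 10 called members in each direction whose mean log2 CPM was 0 or more, the H1 class, the 6 highest per kilobase, up to 4 called genes of each list, Trp53, Cdkn1a and the 3 members nearest the count minimum; other members named were chosen after their values were seen. Depth was 19861977 to 34772519 counts. Over 49 pairs of libraries of 1 group, chi-square divided by its degrees of freedom was 4.35 or more, so none looked like a copy. Thymus, intestine, liver and pancreas libraries with the same animal number come from the same mouse, by the labels; for 33 such pairs the correlation of residuals had a median of 0.0732 (-0.178 to 0.365). The p-values cover only variation between these mice. Alternatives were RLE scaling, no filter, DESeq2 1.42.0, only the groups compared, a block for the mouse, each library left out and, chosen after seeing the data, library totals without TMM. The tests were tried on simulated data.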

Additional observations from a re-analysis of the deposited data

Results flagged for a closer look

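Dixon's test was run on 212 sets of values, each a gene or a summed level in 1 of the 4 irradiated thymus groups. In 9 sets a library stood apart from the rest of its group. Chance alone gives about 1 in 20, so 9 is no more than chance would give. The sets share libraries and are not independent. In irradiated Het thymus Hist1h2an stood at 0.72 CPM and Hist1h4m at 13.8 CPM in Het-631, while the other 3 libraries stood at 1.36 to 1.46 and 3.84 to 4.81 CPM. Het-594 stood high for Hist1h1c (717 CPM, others 579 to 601) and for the sum of all members (8915 CPM, others 7678 to 7836). Null-593 stood low for Hist1h2ak (15.6 CPM), Hist1h2ag (1.23 CPM) and Hist1h2ae (5.09 CPM), with the other irradiated Null libraries at 23.2 to 23.8, 2.03 to 2.1 and 8.04 to 8.1 CPM. RP-649 stood high for Hist3h2bb-ps (27.5 CPM, others 20.9 to 21.9) and Hist1h1b (688 CPM, others 599 to 612). The irradiation response of Hist3h2a differed between Het and AD by 0.9 on the log2 scale in a test of the difference itself, the call described above.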

How the results depend on the processing

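Across the 21 comparisons RLE scaling changed no count of called members by over 1.5 times, and of the genes named in the comparisons it ended 1 call and kept 87. DESeq2 ended 1 and kept 87, no filter ended 7 and kept 81, only the groups compared ended 18 and kept 68, and leaving out a library ended 105 and kept 709. The block for the mouse (replicate block) gave 53 called members for intestine against liver, 51 for intestine against pancreas and 15 for liver against pancreas, against 54, 50 and 15 without it, and kept all 36 named calls.

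With DESeq2 the counts were 47 for the Null response, 3 for irradiated RP against Null, 2 for irradiated AD against RP, and 1 each for basal intestine AD against Null, basal thymus AD against Het, basal thymus Het against Null and the Het minus Null response. With only the groups compared they were 2 for the Null response, 28 for the AD response, 3 for irradiated AD against Het and for Het against Null, 2 for AD against RP, 1 for basal thymus AD against Het and for Het against Null, and 0 for the Het minus AD response. With no filter they were 26 for irradiated RP against Het and 1 for basal thymus AD against Het, AD against Null and Het against Null and for basal liver AD against Null. With library totals liver against pancreas had 29, and Hist1h2bc (0.26) and Hist2h2be (0.35, intestine against liver) and Hist1h2be (0.23, liver against pancreas) changed sign, as did Hist2h3c2 (0.19, intestine against pancreas).

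Leaving out each library gave 0 to 34 for the Null response, 39 to 51 for AD and 50 to 54 for Het, 2 to 7 for irradiated AD against Het, 3 to 10 for Het against Null, 23 to 40 for RP against Het, 0 to 3 for the Het minus AD response and 0 to 2 for Het minus Null. It gave 0 to 1 for basal liver AD against Null, basal thymus AD against Het and Het against Null, and 13 to 22 for liver against pancreas. The causes were not tested. Basal Null thymus had 2 libraries, and without 1 of them the lone sample is assumed to vary like the other groups.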

Other observations

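Annotated length past the stem-loop gave no clear order of the irradiation responses. The 16 members with 300 or more annotated bases past the stem-loop had median log2 fold changes of -0.92 in Null, -0.92 in Het and -1.04 in AD. The 24 with a stem-loop and less sequence past it had -0.88, -1.11 and -1.13, and the 19 with no match had -0.91, -1.07 and -1.13. These medians are a description with no test.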
